A study of Mus musculus with 18 samples.

Results

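The respiratory chain of MC38, a mouse colon adenocarcinoma cell line, was followed in the 100 rows of the count table that carry its genes, out of 15596 rows. The members were chosen by name: 13 rows for the mRNAs of the mitochondrial genome (ND1 to ND6, ND4L, COX1 to COX3, ATP6, ATP8 and CYTB) and 87 rows with nuclear symbols made of Nduf, then a, b, c, s or v and a digit, Sdh and a letter, or beginning Uqcr, Cox4 to Cox8 or Atp5, so that assembly factors such as Ndufaf1 are not members. The nuclear rows comprised 38 of complex I, 4 of complex II, 8 of complex III, 18 of complex IV, 17 of complex V and 2 pseudogenes, Cox5b-ps and Ndufa12-ps. Ndufa4 and its paralog Ndufa4l2, once assigned to complex I, were counted with complex IV. Poly(A) RNA was sequenced from 4 groups. These were tumours of MC38 cells with Mbtps1 knocked down (Mbtps1 KD, 5 libraries), tumours of control MC38 cells (Mbtps1 WT, 5 libraries), cultured Mbtps1 KD cells (3 libraries) and cultured Mbtps1 WT cells (3 libraries). Mbtps1 encodes site-1 protease, and the study asked what its loss does to tumour cells and to their tumours. The hosts of both kinds of tumour were C57BL/6 wild-type mice, so both hold host cells beside the cancer cells. The series description calls the cultured cells knockout and the implanted ones knockdown, while every sample label says KD. How the depletion was made, whether a line is 1 clone, the age of the mice and the day of collection are not given in the sources used here, nor whether each replicate is its own culture or mouse. The p-values therefore measure only how far the libraries of a group spread.

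The respiratory chain passes electrons from NADH and succinate to oxygen through complexes I to IV of the inner mitochondrial membrane, and ATP synthase, complex V, uses the proton gradient that complexes I, III and IV build. Mitochondrial DNA is transcribed from both strands as long precursors, mostly cut at tRNAs, and its mRNAs encode core subunits of complexes I, III, IV and V. Complex II and all other subunits are encoded in the nucleus and imported, so 2 genomes supply each of the other complexes.

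Mbtps1 itself stood at 50.1, 41.4, 57.1, 56.3 and 54.1 CPM in the KD tumours, against 114, 110.3, 129.8, 129 and 122 in the WT tumours, and at 36.99, 35.7 and 34.8 in the KD cells, against 129, 135 and 118 in the WT cells. CPM is a count divided by its library's total and scaled alike in all libraries. Library totals ran from 19630410 to 32655739 counts in tumours and from 14240353 to 15515405 in cells. Some libraries stood apart. KD tumours 3 and 5 held the highest mitochondrial shares of the 10 tumours, both above all 8 others in 12 of the 13 mitochondrial mRNAs, and WT tumour 2 held the highest of the 5 WT tumours. KD cell library 3 was tilted toward short and GC-rich transcripts: its genes in the lowest quintile of GC content lay -0.44 (log2) from those in the highest quintile, where the other 5 cell libraries lay between -0.017 and 0.24, and it was the highest of the 6 for 66 of the 81 nuclear members with counts in cells. All 5 KD tumours were tilted toward AT-rich transcripts, with the same difference between 0.17 and 0.43, against -0.38 to -0.12 in the WT tumours. For KD tumours 3 and 5 and KD cell library 3, such counts over all genes are not given here. Of the epithelial markers in the table, Krt8 was listed at 0 in all 10 tumours and Epcam, Cdh1 and Krt7 at 0 in all 6 cell libraries, and the 4 summed to at most 7.44 CPM in any library. The table listed 2582 rows at 0 in all 6 cell libraries, and every other row held 13 or more counts over them, while 322 rows were at 0 in all 10 tumours and every other row held 15 or more. Whether rows were left out of either part for low counts is not given, so such a 0 is read here only as listed.

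Mitochondrial mRNAs were higher in the Mbtps1 KD tumours than in the WT tumours, while the nuclear genes of the same complexes were not shifted as a group. The 13 mitochondrial rows took 2.88, 3.17, 7.07, 3.004 and 5.77% of all counts in the 5 KD tumours, against 1.503, 2.78, 1.65, 1.87 and 1.81% in the 5 WT tumours. The groups did not overlap, and the lowest KD tumour lay just above WT tumour 2. The 87 nuclear rows took 1.24, 1.404, 1.15, 1.24 and 1.28% in the KD tumours, against 1.36, 1.29, 1.303, 1.23 and 1.22% in the WT tumours, groups that overlapped. The mitochondrial to nuclear ratio was thus 2.33, 2.26, 6.17, 2.42 and 4.497 in the KD tumours, against 1.102, 2.15, 1.26, 1.51 and 1.49 in the WT tumours. The mean ratio was 3.53 in the KD tumours and 1.502 in the WT tumours, with no overlap. In bulk RNA, fewer cells of a type and less RNA per cell cannot be told apart. The plot of shares by library shows the same split, with KD tumours 3 and 5 far above the other KD tumours.

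**Figure D1:**
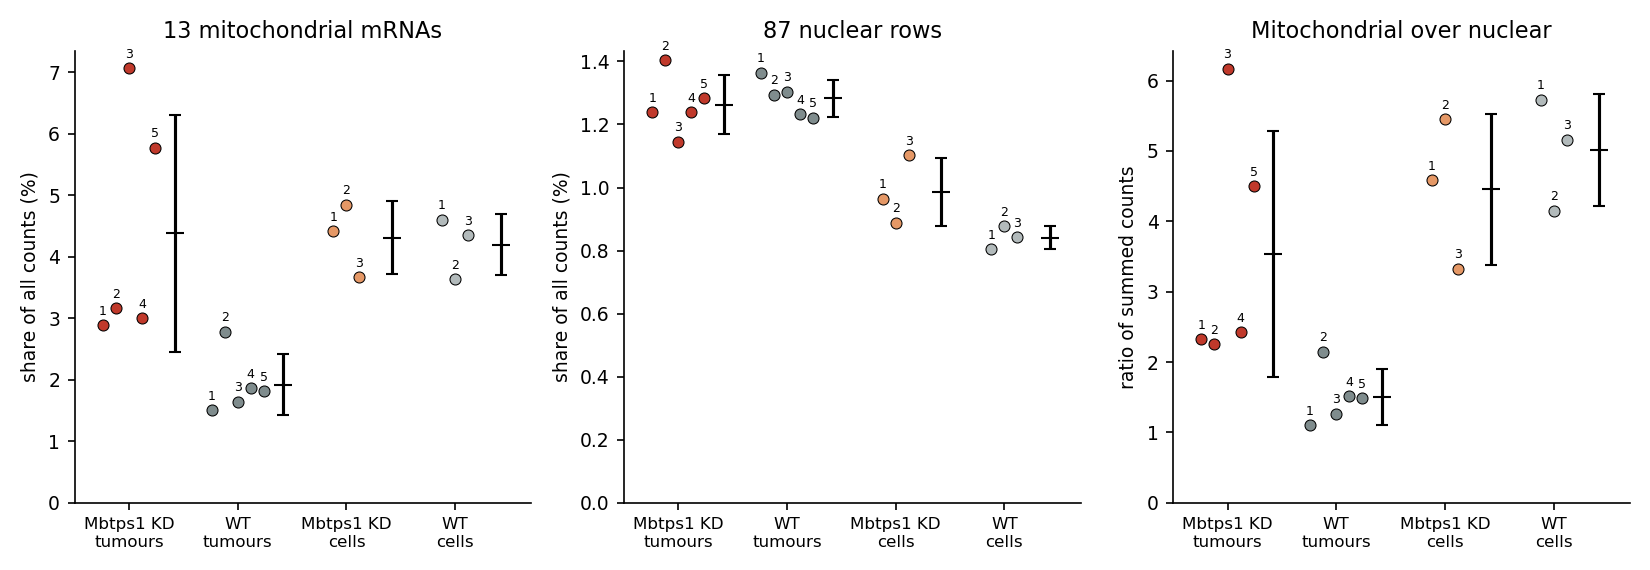
Share of all counts in the 13 mitochondrial rows (left, %), share in the 87 nuclear rows (middle, %) and the ratio of the summed counts (right) in each numbered library of the 4 groups; bars give the mean and SD. The mitochondrial share is 2.88% to 7.07% in the KD tumours and 1.503% to 2.78% in the WT tumours, while the nuclear shares of these groups overlap.

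By edgeR's quasi-likelihood test with Benjamini-Hochberg adjustment, 12 of the 13 mitochondrial mRNAs rose in the KD tumours and 0 fell, with a median log2 fold change of 1.20, against 0.02 over all 13997 genes tested. Of those genes 38.4% passed an adjusted p of 0.05, 20.1% of all genes as rises. ND2, a membrane subunit of complex I, had 1868, 2076, 5216, 1836 and 3779 CPM in the KD tumours, against 712, 1509, 764, 965 and 889 CPM in the WT tumours. Every KD tumour lay above every WT tumour, and the log2 fold change was 1.63 (SE 0.32, adjusted p = 0.00254). COX1, the catalytic subunit of complex IV and with CYTB the most abundant of the 13, had 10902, 11342, 25322, 11204 and 21131 CPM in the KD tumours, against 5652, 9960.4, 6450.4, 7409.5 and 6938 CPM in the WT tumours. It rose by 1.15 (SE 0.26, adjusted p = 0.00464), again without overlap. CYTB, the only subunit of complex III from the mitochondrial genome, had 8179.9, 8775, 21389, 8799 and 16852 CPM in the KD tumours, against 4317, 8220.4, 4692, 5124 and 5039 CPM in the WT tumours. Here the lowest KD tumour lay below WT tumour 2, and the rise was 1.24 (SE 0.29, adjusted p = 0.00565). ATP8, a small membrane subunit of ATP synthase, had 561, 858, 1535, 808 and 1686 CPM in the KD tumours, against 245, 499.7, 353, 308 and 325 CPM in the WT tumours. It rose by 1.67 (SE 0.29, adjusted p = 0.00134) with no overlap.

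The other complex I subunits from mitochondrial DNA rose too. ND6, encoded on the other strand from the other 12 and known in human cells for a transcript without a poly(A) tail, rose by 1.36 (SE 0.26, adjusted p = 0.0021), ND1 by 1.31 (SE 0.28, adjusted p = 0.00343) and ND5 by 1.04 (SE 0.24, adjusted p = 0.00479), all without overlap between the groups. ND4 rose by 1.10 (SE 0.28, adjusted p = 0.00807) and ND4L by 1.20 (SE 0.33, adjusted p = 0.0147), each with overlap. ND3 was the most uneven, with 42.98, 308, 209.98, 40.7 and 283 CPM in the KD tumours, against 54.7, 43.2, 34.01, 15.4 and 36.97 CPM in the WT tumours. KD tumours 1 and 4 lay within the WT range, and the log2 fold change was 2.30 (SE 0.62, adjusted p = 0.0152). In the membrane part of ATP synthase ATP6 rose by 1.19 (SE 0.42, adjusted p = 0.044), and in complex IV COX3 rose by 0.85 (SE 0.23, adjusted p = 0.0105). COX2, which takes electrons from cytochrome c, did not pass, at 0.58 (SE 0.31, adjusted p = 0.159). Its CPM were 349, 389.6, 919, 302 and 675 in the KD tumours and 289, 534, 278, 299.9 and 391 in the WT tumours. In all, 6 of the 13 mRNAs did not overlap between the groups (ND1, ND2, ND5, ND6, COX1 and ATP8), all higher, where 22.6% of all genes tested did not overlap and 11.3% were higher in every KD tumour.

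Several other measures were set beside this rise, and their part in it was not tested. Without KD tumours 3 and 5, 7 of the 13 mRNAs passed as rises, the median was 0.65, and 12 of the 13 values were positive, the exception being COX2 at -0.05. That comparison was chosen after the values were seen, and 26.5% of all genes passed in it. With a per-library correction for the GC content and length of transcripts (the GC and length correction), 3 passed (ND2 at 0.87, adjusted p = 0.0189, COX1 at 0.66, adjusted p = 0.0394 and CYTB at 0.66, adjusted p = 0.0499), the median was 0.45, and again 12 of 13 were positive. Of all genes tested 30.8% passed with this correction. The mitochondrial transcripts are AT-rich, with 31.9% to 41.1% GC, against a median of 49.8% over all genes tested. Skeletal muscle markers, genes of a tissue rich in mitochondria, rose in 10 of 14 cases and fell in 0, and their summed CPM were 179.8, 468, 149.5, 186 and 194 in the KD tumours, against 115, 124, 122, 98.5 and 159 in the WT tumours, KD tumour 3 lying below WT tumour 5. Markers of natural killer cells summed to 95.1, 115, 84.4, 111 and 117 CPM in the KD tumours, against 50.6, 25.5, 28.5, 33.98 and 30.8 CPM in the WT tumours, and 8 of 8 rose. Those of T cells summed to 128, 166, 129, 127 and 158 CPM in the KD tumours, against 117, 59.9, 86.5, 57.6 and 50.6 CPM in the WT tumours, and 7 of 9 rose. Of 8 fibroblast markers 4 fell and 0 rose, and their sums were 2812 to 3591 CPM in the KD tumours and 3821 to 4851 CPM in the WT tumours. Of 11 macrophage markers 4 rose and 0 fell, and their sums overlapped, at 3070 to 5104 CPM in the KD tumours and 2858 to 5214 CPM in the WT tumours. Among the KD tumours, KD tumour 3 had the highest mitochondrial share and the highest fibroblast sum. It had the lowest muscle, natural killer and macrophage sums of that group, and its T cell sum was neither highest nor lowest. None of the markers of these 5 lists was at 0 in any tumour. Of the other lists, 0 of 8 endothelial markers rose and 3 fell, 1 of 10 mural cell markers rose and 4 fell, 0 of 3 adipocyte markers rose and 2 fell, and 1 of 4 neutrophil markers rose and 1 fell.

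Nuclear genes of the chain moved both ways in the KD tumours. Of 86 tested, 20 rose, 14 fell and 52 did not pass, 39.5% in all, close to the 38.4% of all genes, and their median log2 fold change was 0.06. In complex I, 12 of 38 rose and 7 fell. The risers included accessory subunits of the membrane arm and Ndufv2, an iron-sulphur core subunit (0.57, SE 0.11, adjusted p = 0.00248). Ndufc2, of the membrane arm, had 46.5, 67.3, 84.9, 62.8 and 106 CPM in the KD tumours, against 35.2, 46.1, 35.1, 35.6 and 32.03 CPM in the WT tumours. All KD tumours were higher, and it rose by 1.02 (SE 0.19, adjusted p = 0.00168). Ndufb4 rose by 0.73 (SE 0.14, adjusted p = 0.0019). Its near-identical copies Ndufb4b (0.73) and Ndufb4c (0.74) moved with it, but how reads were split between the 3 is not given, so they are not independent. Among the core subunits, Ndufs1, an iron-sulphur protein of the arm that oxidises NADH, had 53.3, 46.01, 60.1, 60.7 and 63.5 CPM in the KD tumours, against 43.7, 42.8, 51.5, 42.6 and 46.6 CPM in the WT tumours. It rose by 0.33 (SE 0.092, adjusted p = 0.0123), with overlap. Ndufv1, which binds NADH, had 105, 104, 74.3, 107 and 79.2 CPM in the KD tumours, against 126, 108, 125, 121 and 118 CPM in the WT tumours. It fell by 0.34 (SE 0.10, adjusted p = 0.0211), with every KD tumour below every WT tumour. Ndufs7, a subunit of the ubiquinone-binding part (-0.24, SE 0.085, adjusted p = 0.0365), fell as well, as did the accessory subunit Ndufa2 (-0.41, SE 0.11, adjusted p = 0.0128).

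In complex II, which also serves the citric acid cycle, Sdha fell by 0.44 (SE 0.15, adjusted p = 0.0343) and the other 3 subunits did not pass. Sdha, the flavoprotein that oxidises succinate, had 192, 162, 101, 182 and 123 CPM in the KD tumours, against 232, 176, 228, 190.2 and 209.6 CPM in the WT tumours, with KD tumours 3 and 5 lowest. Its iron-sulphur partner Sdhb stood at 0.13 (SE 0.081, adjusted p = 0.203). In complex III, the small subunit Uqcrb rose by 0.74 (SE 0.20, adjusted p = 0.0118) and the core protein Uqcrc2 by 0.23 (SE 0.079, adjusted p = 0.032). Uqcrc1, the other core protein, fell by 0.41 (SE 0.11, adjusted p = 0.0121), with 213, 197, 145, 209.7 and 147 CPM in the KD tumours and 252, 232, 258, 259 and 225 CPM in the WT tumours. The Rieske iron-sulphur protein Uqcrfs1 did not pass (-0.038, SE 0.094, adjusted p = 0.772).

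Complex IV had 2 risers and 4 fallers among 17 tested. The small subunits Cox6c (0.73, SE 0.16, adjusted p = 0.00388) and Cox7c (0.69, SE 0.16, adjusted p = 0.00547) rose. Cox4i1, the main form of the largest nuclear subunit, had 387, 432, 332, 368 and 382 CPM in the KD tumours, against 522, 468, 461, 481 and 459.9 CPM in the WT tumours. It fell by 0.31 (SE 0.087, adjusted p = 0.0134) without overlap, and Cox6a1 fell by 0.29 (SE 0.094, adjusted p = 0.0283). Cox6a2, the form of subunit 6a found in heart and skeletal muscle, had 12.7, 17.5, 20.9, 12.3 and 16.5 CPM in the KD tumours, against 22.4, 26.9, 22.4, 29.8 and 27.7 CPM in the WT tumours. It fell by 0.67 (SE 0.16, adjusted p = 0.00631) without overlap, while the skeletal muscle markers above were higher. Ndufa4l2, a paralog of Ndufa4 induced by hypoxia, was low, at 2.203, 1.75, 1.96, 1.42 and 2.003 CPM in the KD tumours and 3.39, 4.17, 3.95, 3.57 and 4.52 CPM in the WT tumours. Without overlap it fell by 1.05 (SE 0.17, adjusted p = 7.34e-04), the largest fall among the members in tumours. Ndufa4 itself did not pass (0.065, SE 0.11, adjusted p = 0.661).

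In ATP synthase 4 of 17 nuclear subunits rose and 1 fell. The membrane and stalk subunits Atp5md (0.83, SE 0.19, adjusted p = 0.00468), Atp5j (0.65, SE 0.14, adjusted p = 0.00304), Atp5mpl (0.51, SE 0.15, adjusted p = 0.0159) and Atp5h (0.48, SE 0.13, adjusted p = 0.0128) rose, and Atp5d, the delta subunit of the central stalk, fell by 0.49 (SE 0.14, adjusted p = 0.0144). The catalytic beta subunit Atp5b, the nuclear member with the most counts, had 1297, 1076, 634, 1191 and 700.4 CPM in the KD tumours, against 1388, 1055, 1363, 1239 and 1242 CPM in the WT tumours. KD tumours 3 and 5 were the lowest of the 10, and the difference did not pass (-0.35, SE 0.17, adjusted p = 0.126). Across the 87 nuclear rows KD tumours 3 and 5 were both above all 8 others in 12 and both below them in 12. The same count over all genes is not given here, so these are not read as particular to the chain. Without KD tumours 3 and 5, 13 of 86 nuclear members tested rose and 6 fell, where 26.5% of all genes passed.

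**Figure D2:**
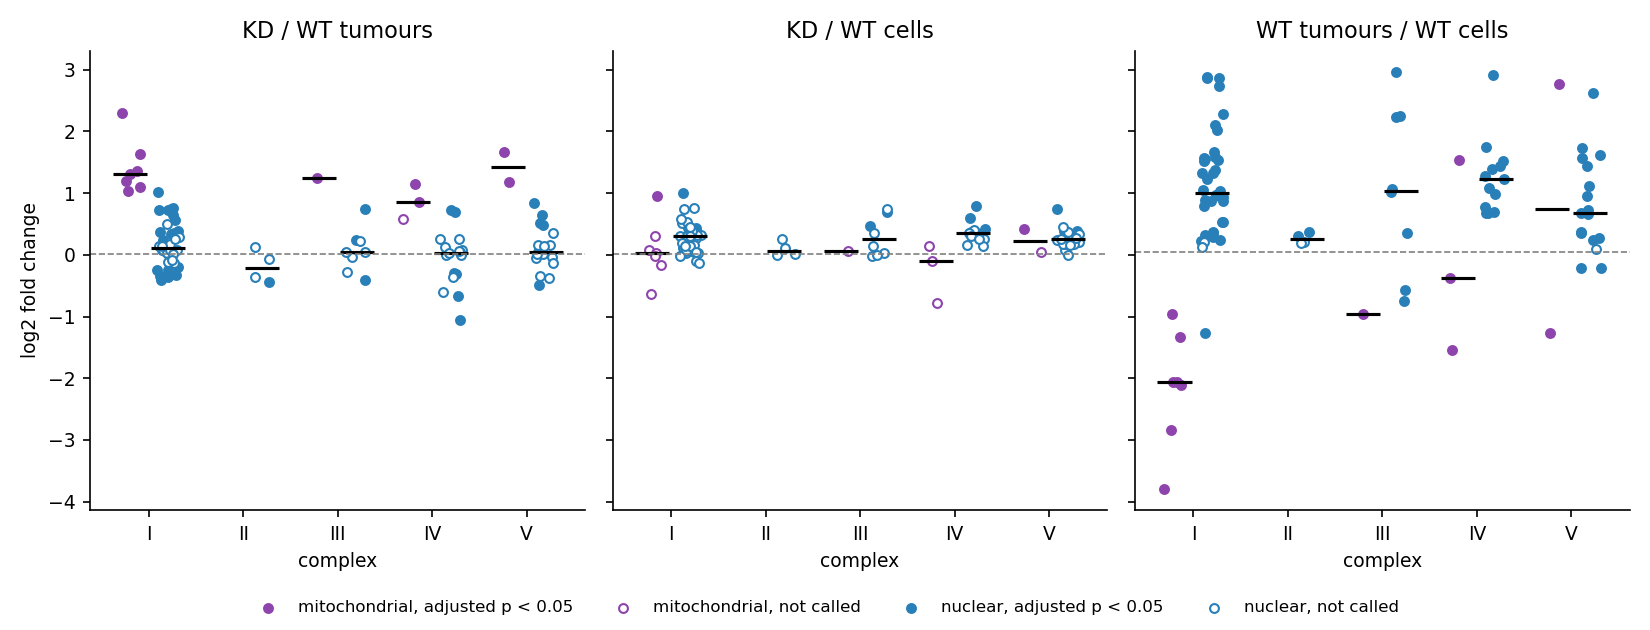
Log2 fold change (vertical axis) of each member tested, by complex (horizontal axis), in KD over WT tumours, KD over WT cells and WT tumours over WT cells; filled points passed an adjusted p of 0.05, black bars are medians, the dashed line is the median of all genes tested, and the pseudogenes are left out. Mitochondrial members lie at 0.58 to 2.30 in the tumour comparison, above most nuclear members, and mostly below them in WT tumours over WT cells.

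The direction of the nuclear members in tumours ran with the GC content of their transcripts. The risers, 19 of 20 with an annotated transcript, had a median GC content of 46.9%, the 14 fallers 54.8% and the others 50.6%. Across the 83 nuclear members with a transcript, Pearson's r between log2 fold change and GC content was -0.42 (Spearman's rho -0.38), and across all 13743 genes it was -0.36 (rho -0.40). Genes share libraries and are not independent, so these are descriptions. With the GC and length correction, 10 of 85 nuclear members tested rose and 19 fell, where 30.8% of all 13743 genes passed. Cox7c and Uqcrc2 then stood at -0.0044 and -0.011. The calls of Ndufc2, Ndufb4, Cox6c, Atp5j, Cox4i1, Cox6a2, Ndufa4l2, Ndufa2 and Sdha passed with the correction, and those of Ndufs1, Ndufv1, Ndufs7, Uqcrb, Atp5h and Atp5d did not.

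**Figure D3:**
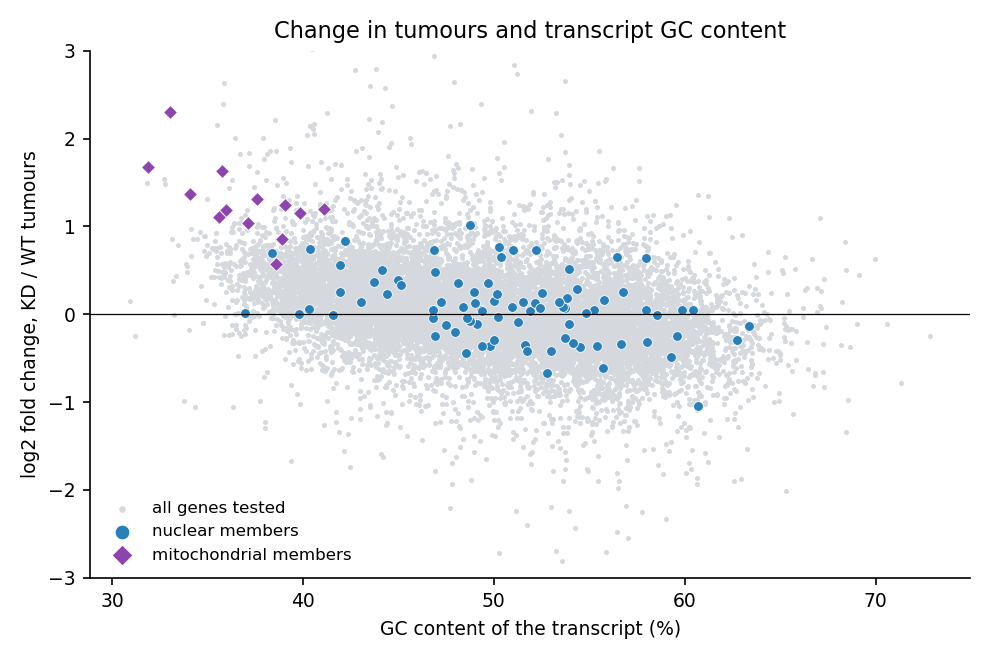
Log2 fold change in KD over WT tumours (vertical axis) against the GC content of the longest annotated transcript (horizontal axis, %), for all genes tested (grey), nuclear members (blue) and mitochondrial members (purple); 12 genes lie outside the vertical range and 254 have no transcript. The mitochondrial members are at the AT-rich end, at 31.9% to 41.1% GC, and the nuclear members follow the slope of all genes (r = -0.42).

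In cultured cells the summed nuclear members took a larger share of counts in every Mbtps1 KD library than in any WT library, 14 of 80 nuclear members tested rose, and 11 of 13 mitochondrial mRNAs did not pass the test. The mitochondrial share was 4.42, 4.84 and 3.66% in the KD cells, against 4.604, 3.64 and 4.35% in the WT cells, overlapping. The nuclear share was 0.964, 0.888 and 1.102% in the KD cells, against 0.804, 0.877 and 0.842% in the WT cells. Their ratio was 4.58, 5.45 and 3.33 in the KD cells and 5.73, 4.15 and 5.16 in the WT cells, again overlapping. Of 80 nuclear members tested with edgeR, 14 rose and 0 fell, with 74 values above 0 and a median of 0.28, against 0.01 over all genes, of which 9.33% passed, 3.76% as rises and 5.57% as falls. In 28 of them every KD library lay above every WT library, and in 0 below, where 31.8% of all genes tested did not overlap, and 16% were higher in every KD library. Cox4i2, Cox5b-ps, Cox6b2, Cox7a1, Cox8b and Ndufa4l2 were listed at 0 in every cell library and so were not tested in cells. The filter on low counts left out Ndufa12-ps in cells and Cox8b in tumours.

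Complex I gave 4 risers of 38. Ndufs6, an accessory zinc-binding subunit, had 18.6, 14.5 and 33.4 CPM in the KD cells, against 9.52, 14.3 and 9.13 CPM in the WT cells. KD library 3 was far the highest, and the log2 fold change was 1.001 (SE 0.28, adjusted p = 0.0424). Ndufv1 had 117, 102 and 145 CPM in the KD cells, against 84.03, 96.4 and 88.1 CPM in the WT cells. It rose by 0.43 (SE 0.12, adjusted p = 0.0461), as did the accessory subunits Ndufa5 (0.44, SE 0.12, adjusted p = 0.0414) and Ndufa12 (0.41, SE 0.11, adjusted p = 0.0353), while Ndufs1 did not pass (-0.12, SE 0.094, adjusted p = 0.422). Complex II had 0 calls of 4 by edgeR, 0 also at an unadjusted p under 0.05, and a median of 0.07. In complex III the small subunits Uqcrq (0.69, SE 0.18, adjusted p = 0.0318) and Uqcrb (0.48, SE 0.13, adjusted p = 0.0378) rose, and the core proteins did not pass.

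Complex IV had the highest nuclear median, 0.35, with 4 of 13 members up. Cox5b, a subunit facing the matrix, had 61.7, 46.01 and 92.4 CPM in the KD cells, against 29.8, 46.2 and 38.3 CPM in the WT cells. KD library 2 lay just below WT library 2, and the rise was 0.80 (SE 0.22, adjusted p = 0.0423). Cox8a (0.60, SE 0.16, adjusted p = 0.0367), Cox7b (0.42, SE 0.098, adjusted p = 0.0231) and Ndufa4 (0.35, SE 0.094, adjusted p = 0.0397) rose too, and Cox4i1 did not pass (0.37, SE 0.11, adjusted p = 0.0601). The summed nuclear genes of complex IV averaged 1711 CPM in the KD cells and 1327 CPM in the WT cells, without overlap. In ATP synthase the membrane subunits Atp5k (0.75, SE 0.21, adjusted p = 0.0463), Atp5j2 (0.39, SE 0.10, adjusted p = 0.0374) and Atp5l (0.39, SE 0.10, adjusted p = 0.0343) and the stalk subunit Atp5h (0.37, SE 0.094, adjusted p = 0.0317) rose. The catalytic Atp5a1 (0.076, SE 0.089, adjusted p = 0.625) and Atp5b (0.17, SE 0.086, adjusted p = 0.23) did not.

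The mitochondrial mRNAs that passed in cells were ND3 and ATP8. ND3 had 643, 703 and 323 CPM in the KD cells, against 269, 279 and 306 CPM in the WT cells. It rose by 0.96 (SE 0.22, adjusted p = 0.0226) without overlap, KD library 3 being close to the WT cells. ATP8 had 65.9, 79.8 and 76.2 CPM in the KD cells, against 59.2, 49.9 and 55.5 CPM in the WT cells, a rise of 0.42 (SE 0.11, adjusted p = 0.0364). The other 11 ranged from -0.78 for COX2 to 0.30 for ND1. These cell calls, 16 in all, changed with the libraries in the fit. They became 0 without KD library 1 and 1 without WT library 1 or WT library 2. They were 2 without WT library 3, 14 without KD library 3 (3 mitochondrial and 11 nuclear) and 30 without KD library 2. Over all genes 2.8% passed without KD library 1, 2.4% without WT library 1, 3.9% without WT library 2 and 6.5% without WT library 3. That share was 9.5% without KD library 3 and 12.7% without KD library 2, against 9.3% with every library. The nuclear median was 0.17 to 0.35 with single libraries left out. With the GC and length correction, 9 of 79 nuclear members and 0 of 13 mitochondrial mRNAs passed, where 12.8% of all 11701 genes tested passed. The nuclear median was then 0.07, and ATP8 stood at -0.01. The nuclear members have short mRNAs, a median of 988.5 bases against 3282 over all genes, and their fold changes in cells ran with log2 transcript length (r = -0.39 over 79 members, and -0.34 over 11701 genes). Without KD library 3 their median was 0.17.

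The comparisons in cells and in tumours share no library. Atp5h, Ndufa5 and Uqcrb rose in KD cells and in KD tumours, 21.4% of the 14 nuclear risers in cells and 15% of the 20 in tumours, and so did ATP8 and ND3. Of all genes tested 3.76% rose in KD cells and 20.1% in KD tumours. Ndufv1 rose in KD cells and fell in KD tumours.

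The difference between the knockdown's effect in tumours and its effect in cells was tested in 1 fit over all 16 libraries. Only genes with counts in both tumours and cells entered it. For 7 of the 13 mitochondrial mRNAs it was above 0, and for 0 below, with a median of 1.27 and all 13 values positive, where 22.7% of 12581 genes passed, 12.7% above 0 and 9.95% below. ND2 (1.56, SE 0.46, adjusted p = 0.0238), ND6 (1.39, SE 0.38, adjusted p = 0.0159), ATP8 (1.27, SE 0.42, adjusted p = 0.0383), COX1 (1.27, SE 0.37, adjusted p = 0.0201), ND5 (1.23, SE 0.36, adjusted p = 0.0216), CYTB (1.21, SE 0.41, adjusted p = 0.0405) and ND4L (1.85, SE 0.57, adjusted p = 0.0345) passed. ND1, ND3, ND4, COX2, COX3 and ATP6 did not. Of 81 nuclear members, 13 lay below 0, meaning a lower effect in tumours than in cells, and 2 above, with a median of -0.18. Ndufs6 (-1.09, SE 0.32, adjusted p = 0.021), Cox6a2 (-1.05, SE 0.28, adjusted p = 0.0127), Ndufv1 (-0.75, SE 0.17, adjusted p = 0.00549), Cox4i1 (-0.66, SE 0.15, adjusted p = 0.00449) and Atp5d (-0.71, SE 0.22, adjusted p = 0.0295) were among those below 0, and Ndufs1 (0.48, SE 0.14, adjusted p = 0.0206) and Ndufb4c (0.73, SE 0.23, adjusted p = 0.0283) were the exceptions. The 22 calls became 6 without KD cell library 3, 7 without WT cell library 1 or 3, 35 without KD tumour 1 and 10 without KD tumours 3 and 5. The mitochondrial calls among them became 1 without KD cell library 3, 2 without WT cell library 1 and 3 without WT cell library 3. Over all genes 13.2% passed without KD cell library 3, 15.4% without WT cell library 1 and 14.7% without WT cell library 3. That share was 26.7% without KD tumour 1 and 18.4% without KD tumours 3 and 5. With the GC and length correction 14 members passed, 0 of them mitochondrial, where 13.1% of all genes passed.

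**Figure D4:**
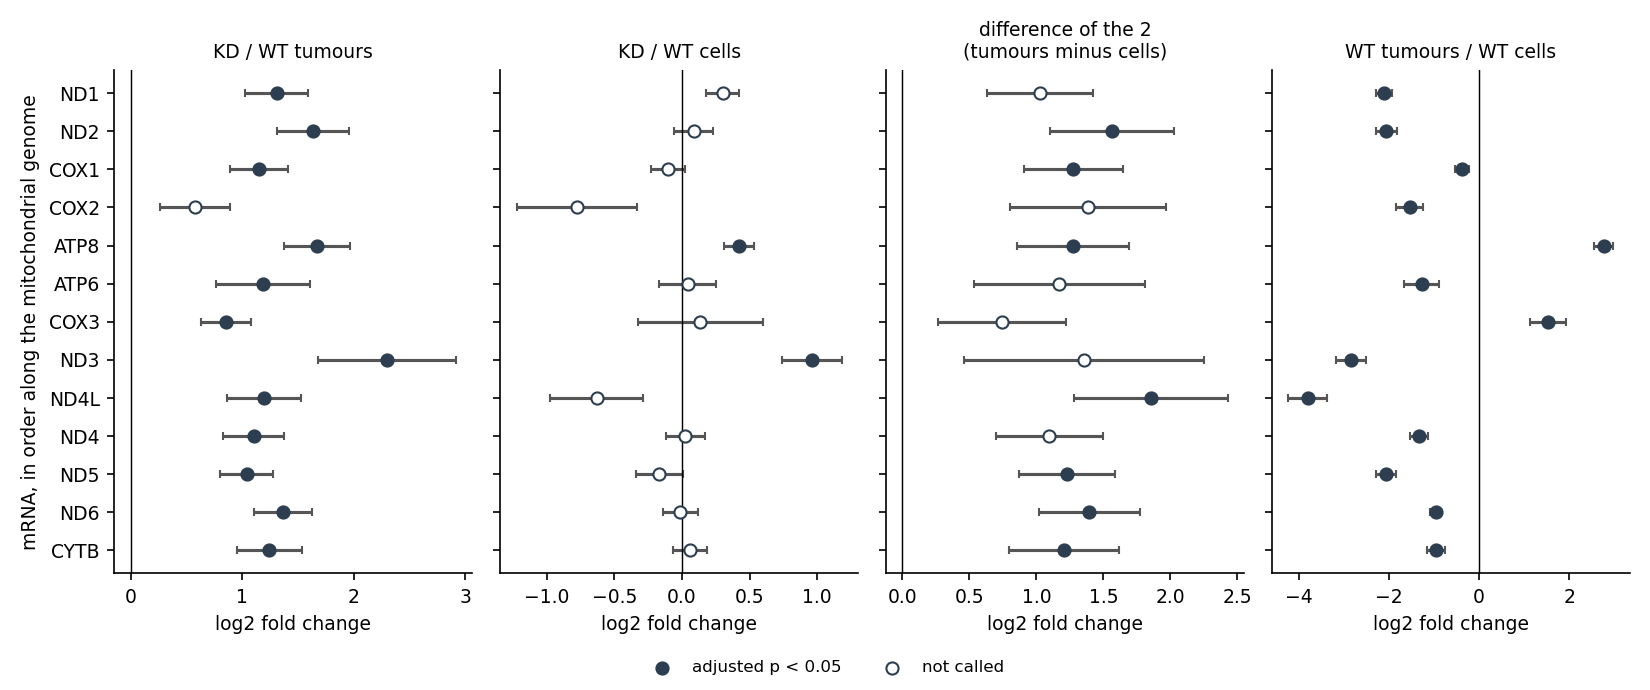
Log2 fold change with its standard error (horizontal axis) of the 13 mitochondrial mRNAs, in order along the mitochondrial genome (vertical axis), in KD over WT tumours, KD over WT cells, the difference of these effects and WT tumours over WT cells; filled points passed an adjusted p of 0.05. In tumours 12 of 13 passed as rises, in cells 2, and against WT cells 11 were lower and 2, ATP8 and COX3, higher in WT tumours.

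WT tumours were compared with WT cells to place these effects. Tumour and culture libraries differ in host cells and may differ in batch, which cannot be told apart. Macrophage markers, for one, summed to 2858 to 5214 CPM in the WT tumours and 3.30 to 4.42 CPM in the WT cells, where 8 of the 11 were listed at 0. The WT libraries used here also serve as controls above. Only genes with counts in both tumours and cells were tested. The 2 genomes moved in opposite directions. The mitochondrial share averaged 1.92% in the WT tumours and 4.197% in the WT cells, and the nuclear share 1.28% in the WT tumours and 0.841% in the WT cells, both without overlap. All 13 mitochondrial mRNAs passed, 11 lower and 2 higher, with a median of -1.33, where 79.1% of 12410 genes passed, 40.7% higher and 38.4% lower. Of 81 nuclear members 71 were higher, 5 lower and 5 not passed, with a median of 0.98, against 0.04 over all genes.

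ND4L showed the deepest fall, with 7.83, 22.5, 11.9, 12.7 and 10.9 CPM in the WT tumours, against 319, 126 and 145 CPM in the WT cells, and fell by 3.797 (SE 0.43, adjusted p = 1.04e-04). Among the other complex I mRNAs, ND3 (-2.84, SE 0.33, adjusted p = 1.01e-04), ND1 (-2.12, SE 0.18, adjusted p = 5.69e-07), ND5 (-2.07, SE 0.21, adjusted p = 7.93e-06) and ND2 (-2.05, SE 0.24, adjusted p = 2.63e-05) fell further than ND4 (-1.33, SE 0.20, adjusted p = 1.21e-04) and ND6 (-0.96, SE 0.12, adjusted p = 4.16e-06). CYTB fell by 0.95 (SE 0.19, adjusted p = 6.75e-04), COX2 by 1.54 (SE 0.30, adjusted p = 0.00179), ATP6 by 1.27 (SE 0.38, adjusted p = 0.017) and COX1 by 0.38 (SE 0.15, adjusted p = 0.0347). COX3 had 458, 904, 601, 608 and 751 CPM in the WT tumours, against 247, 124 and 369 CPM in the WT cells, a rise of 1.53 (SE 0.39, adjusted p = 0.00814). ATP8 rose by 2.77 (SE 0.22, adjusted p = 4.37e-07). Among the 13 only COX1 overlapped between WT tumours and WT cells, where 75.7% of all genes tested did not overlap and 39.7% were lower in every WT tumour.

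Among the nuclear members Uqcr11, a small subunit of complex III, had 185, 203, 198, 196 and 179 CPM in the WT tumours, against 22.7, 32.4 and 24.3 CPM in the WT cells (2.97, SE 0.11, adjusted p = 5.36e-12). Cox5b had 279.7, 279, 266, 247 and 255 CPM in the WT tumours, against the cell values above (2.91, SE 0.12, adjusted p = 1.11e-11), and the complex I accessory subunits Ndufa3 (2.88, SE 0.13, adjusted p = 2.97e-11), Ndufa2 (2.86, SE 0.13, adjusted p = 3.99e-11) and Ndufa13 (2.86, SE 0.12, adjusted p = 8.25e-12) rose by similar amounts. The 5 that fell were Ndufs1 (-1.27, SE 0.08, adjusted p = 6.49e-10), Uqcrfs1 (-0.75, SE 0.08, adjusted p = 2.803e-07), Uqcrc2 (-0.57, SE 0.081, adjusted p = 8.43e-06), Atp5b (-0.21, SE 0.09, adjusted p = 0.0403) and Atp5a1 (-0.21, SE 0.088, adjusted p = 0.0359). Complex II had the lowest median of the 5 complexes, 0.26 over 4 members, with 2 rises. With the GC and length correction, 36 of 80 nuclear members were higher and 31 lower, where 74.4% of all genes passed. Their median was then 0.02, against -0.20 over all genes. Among the mitochondrial mRNAs 2 were higher and 10 lower with that correction.

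The mix of mitochondrial mRNAs also differed between tumours and culture. Complex I mRNAs made up 24.8% to 27.3% of mitochondrial counts in the KD tumours, 23.0% to 25.6% in the WT tumours, 43.5% to 46.9% in the KD cells and 41.5% to 43.7% in the WT cells. Complex IV mRNAs made up 39.2% to 42.1% in the KD tumours, 41.0% to 44.6% in the WT tumours, 23.8% to 25.3% in the KD cells and 25.8% to 28.7% in the WT cells. CYTB held a share between 26.0% and 30.3% in all 16 libraries. Between genotypes, ND2 took a larger part in every KD tumour (6.48, 6.56, 7.38, 6.11 and 6.55% in the KD tumours, against 4.74, 5.43, 4.64, 5.18 and 4.896% in the WT tumours). COX2 took a smaller part in every KD tumour (1.21, 1.23, 1.3003, 1.01 and 1.17% in the KD tumours, against 1.92, 1.92, 1.69, 1.61 and 2.15% in the WT tumours). ND1 took a larger part in every KD cell library (14.8, 14.5 and 14.6% in the KD cells, against 11.7, 12.2 and 12.5% in the WT cells). So did ND3 (1.46, 1.45 and 0.883% in the KD cells, against 0.585, 0.765 and 0.704% in the WT cells) and ATP8 (0.149, 0.165 and 0.208%, against 0.129, 0.137 and 0.128%). COX1 took a smaller part (22.8, 22.4 and 21.4% in the KD cells, against 24.3, 25.7 and 23.1% in the WT cells). These parts have a common total and are not independent.

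Tumours and culture also differed between neighbours that share an RNA. ATP8 and ATP6, and likewise ND4L and ND4, are each read from 1 mRNA with overlapping reading frames. The overlaps are shown because reads inside them belong to both genes, and how the authors' counting assigned such reads is not given. Capitals mark the shared bases, 43 for ATP8 and ATP6 (MT:7918-7969, plus strand) and 7 for ND4L and ND4 (MT:10158-10173, plus strand), in GENCODE M21 transcripts of GRCm38.
ATP8, 3′ end: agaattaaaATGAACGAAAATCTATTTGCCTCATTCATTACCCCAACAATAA
ND4L, 3′ end: cctactacaATGCTAA
ATP8 is 204 bases long and ATP6 681, and ND4L is 297 and ND4 1378. The ratio of ATP8 to ATP6 counts was 1.88, 1.32, 1.42, 1.502 and 1.31 in the KD tumours and 1.07, 0.781, 1.179, 1.55 and 0.937 in the WT tumours, against 0.0754, 0.129 and 0.0589 in the KD cells and 0.0568, 0.0571 and 0.0725 in the WT cells. All 10 tumours lay above all 6 cell libraries, and the mean of the WT tumours was 17.8 times that of the WT cells. The ratio of ND4L to ND4 went the other way, at 0.00529, 0.00792, 0.00783, 0.00692 and 0.00633 in the WT tumours, against 0.0567, 0.0299 and 0.0265 in the WT cells, with all tumours below all cell libraries. COX3 over COX2 averaged 1.88 in the WT tumours and 0.248 in the WT cells, and CYTB over COX1 0.747 in the WT tumours and 1.12 in the WT cells, each without overlap. The KD and WT tumours overlapped in all 4 of these ratios. ND1 over ND2 was lower in every KD tumour (0.821 to 1.004 in the KD tumours, 1.04 to 1.37 in the WT tumours) and higher in every KD cell library (1.302 to 1.42 in the KD cells, 1.10 to 1.24 in the WT cells). Libraries were size-selected, and whether short genes were recovered alike in both parts was not tested.

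**Figure D5:**
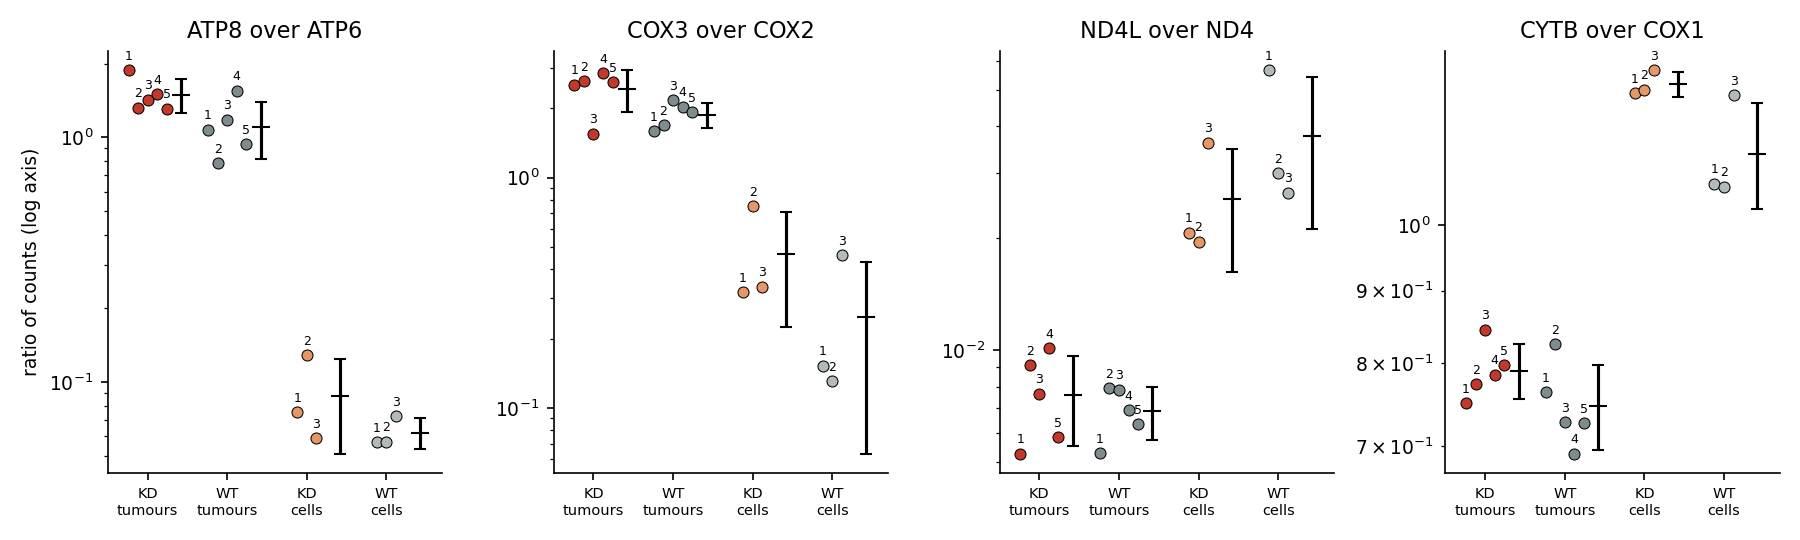
Ratio of counts (log axis, with its own range in each panel) of ATP8 over ATP6, COX3 over COX2, ND4L over ND4 and CYTB over COX1 in each numbered library of the 4 groups; bars give the mean and SD. Tumours and cells separate in every panel, while KD and WT tumours overlap; ATP8 over ATP6 is 0.781 to 1.88 in tumours and 0.0568 to 0.129 in cells.

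Per kilobase of transcript, CYTB was the highest of the 13 in all 4 groups. Its level was 11188 ± 5240.0 CPM per kb in the KD tumours, 4789 ± 1369 in the WT tumours, 10494 ± 1531 in the KD cells and 10010.1 ± 1154 in the WT cells (SD, n = 5, 5, 3 and 3). COX1 came next in 3 groups, at 10343 ± 4389 CPM per kb in the KD tumours, 4713 ± 1056 in the WT tumours and 6605 ± 609 in the WT cells, within 1 SD of CYTB in both kinds of tumour. In the KD cells ND1 ranked 2, at 6590.5 ± 912 CPM per kb, and COX1 ranked 3, at 6198 ± 1007, closer than their SDs. ATP8 ranked 3 of 13 in the KD tumours (5340.5 ± 2410.3 CPM per kb) and in the WT tumours (1697 ± 463), but 12th in the KD cells (363 ± 35.5) and 13th in the WT cells (269 ± 22.9). ND4L was last in both kinds of tumour, at 99.96 ± 42.8 CPM per kb in the KD tumours and 44.4 ± 18.7 in the WT tumours. The nuclear subunit Cox8a, for comparison, stood at 663 ± 48.2 CPM per kb in the KD tumours, 672 ± 62.1 in the WT tumours, 387 ± 109 in the KD cells and 253 ± 18.6 in the WT cells. Summed by complex, mitochondrial over nuclear counts averaged 3.47 ± 1.54 for complex I in the KD tumours and 1.49 ± 0.400 in the WT tumours, and 10.1 ± 3.05 in the KD cells and 10.9 ± 2.07 in the WT cells. For complex V the ratio was 0.421 ± 0.243 in the KD tumours, 0.140 ± 0.0592 in the WT tumours, 0.206 ± 0.0529 in the KD cells and 0.226 ± 0.0406 in the WT cells, and most of its subunits are nuclear.

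Apart from Cox6a2, the tissue forms Cox4i2, Cox6b2, Cox7a1 and Cox8b of complex IV subunits stood at 2.43 CPM or less in every library. Cox4i2, a form of Cox4i1 best known from lung and induced by hypoxia, had 1.91, 2.43, 1.62, 1.69 and 1.96 CPM in the KD tumours and 1.28, 1.79, 2.13, 1.22 and 1.66 CPM in the WT tumours, overlapping (0.26, SE 0.21, adjusted p = 0.349). Cox7a1, a form from heart and muscle, had 0.166 to 1.03 CPM in the KD tumours and 0.357 to 0.632 CPM in the WT tumours (0.045, SE 0.42, adjusted p = 0.941). Cox6b2, a testis form, had 0.222 to 0.531 CPM in the KD tumours and 0.357 to 1.01 CPM in the WT tumours (-0.61, SE 0.34, adjusted p = 0.166). The muscle form Cox8b, which the filter on low counts removed, had 0.5403, 1.93, 0.766, 0.355 and 0.818 CPM in the KD tumours, against 0.137, 0.138, 0.198, 0.255 and 0.318 CPM in the WT tumours. Its KD values all exceeded the WT values, and KD tumour 2, highest for muscle markers, was the highest. Cox4i2, Cox6b2, Cox7a1, Cox8b, Ndufa4l2 and Cox5b-ps were listed at 0 in every cell library, in the sense given above. Cox7a2l, which takes part in the assembly of supercomplexes, had 199.7, 195, 107, 171 and 129.8 CPM in the KD tumours and 237, 186, 210.02, 199 and 212 CPM in the WT tumours, and did not pass (-0.37, SE 0.15, adjusted p = 0.0659). The pseudogenes did not pass in tumours, and their reads may belong to Cox5b and Ndufa12.

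The promoters of nuclear members were searched for the site of NRF1, a factor known to bind many respiratory chain promoters. The letters searched were GCGC, any base, then TGCGC, on either strand, from 250 bases before to 50 after a start in the RefSeq table (GRCm38.p6). It was found for 17 of 69 nuclear members with an entry (24.6%), against 10.1% of 11853 genes of the count table, with 7 of 33 in complex I, 2 of 3 in complex II, 1 of 5 in complex III, 1 of 13 in complex IV and 6 of 15 in complex V. Shown are a member with a large rise in KD cells, one that rose in both KD comparisons and one that fell in KD tumours, with the motif in capitals: Ndufs6 (chr13:73328479-73328508, minus strand), Ndufa5 (chr6:24527697-24527726, minus strand) and Uqcrc1 (chr9:108936643-108936672, plus strand).
Ndufs6: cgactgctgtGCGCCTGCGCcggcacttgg
Ndufa5: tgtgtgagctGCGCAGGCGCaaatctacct
Uqcrc1: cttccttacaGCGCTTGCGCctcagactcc
A match is a description of these letters and not a site shown to be bound. Nrf1 itself fell by 0.26 (SE 0.069, adjusted p = 0.0106) in the KD tumours.

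Other mitochondrial genes were read from lists chosen with earlier results of these data known. In the KD tumours, 35 of 79 mitochondrial ribosomal protein genes rose and 4 fell, with a median of 0.22, and in the KD cells 6 of 78 rose and 1 fell, with a median of 0.25. Of all genes tested, 20.1% rose and 18.3% fell in the KD tumours, and 3.76% rose and 5.57% fell in the KD cells. Mrpl32 (0.82, SE 0.12, adjusted p = 3.803e-04) and Mrps6 (0.73, SE 0.10, adjusted p = 3.84e-04) rose in tumours. Of 16 genes for processing and stability of mitochondrial RNA, 7 rose and 1 fell in the KD tumours, with a median of 0.25. The risers included Trmt10c, a subunit of mitochondrial RNase P (0.69, SE 0.098, adjusted p = 3.44e-04), and Fastkd1 (1.02, SE 0.15, adjusted p = 3.803e-04), and Elac2, which cuts the other end of tRNAs, fell (-0.38, SE 0.13, adjusted p = 0.0406). In WT tumours against WT cells 10 of these 16 were lower and 3 higher, where 79.1% of all genes passed, and Lrpprc, which stabilises mitochondrial mRNAs, stood at -2.13 (SE 0.079, adjusted p = 4.601e-12). Of 16 genes for mitochondrial DNA and its transcription, 4 rose and 0 fell in the KD tumours, among them the transcription factor Tfb2m (0.58, SE 0.13, adjusted p = 0.00391) and Mterf3 (0.85, SE 0.19, adjusted p = 0.00427).

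Cycs, cytochrome c, which carries electrons from complex III to complex IV, rose in the KD tumours (0.88, SE 0.11, adjusted p = 1.304e-04). It was 1 of 3 risers, with 1 faller, among 14 carrier and ubiquinone genes. The faller was Coq9 (-0.44, SE 0.11, adjusted p = 0.00935). For this and the counts that follow, 20.1% of all genes tested rose in the KD tumours and 18.3% fell, 38.4% in all. Assembly factors moved both ways: in the KD tumours 3 of 15 for complex I rose and 2 fell, 1 of 4 for complex II rose, 1 of 6 for complex III rose, 5 of 21 for complex IV rose and 3 fell, and 1 of 5 for complex V rose. Uqcc2, an assembly factor of complex III, rose in the KD tumours (0.72, SE 0.14, adjusted p = 0.00179) and in the KD cells (0.73, SE 0.17, adjusted p = 0.0217). In the citric acid cycle 4 of 14 rose and 3 fell in the KD tumours, Dld (0.44, SE 0.073, adjusted p = 8.59e-04) and Idh3a (0.41, SE 0.093, adjusted p = 0.00449) being higher and Idh3g (-0.39, SE 0.083, adjusted p = 0.00328) lower. Of 16 import and outer membrane genes 5 rose and 0 fell in the KD tumours. Among 10 regulators of respiration tested in tumours, Myc rose (0.51, SE 0.14, adjusted p = 0.0118) and Nrf1 was the only faller. In the KD cells Myc (0.41, SE 0.086, adjusted p = 0.015) and Ppargc1a, which encodes the coactivator PGC-1alpha (1.99, SE 0.49, adjusted p = 0.0286), rose among 11. Of all genes tested in cells 3.76% rose. Calls of genes outside the members were not repeated with single libraries left out.

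A CRISPR screen of pooled MC38 cells held 64 guides against 16 genes of these families, with 1 library from C57BL/6 hosts and 1 from Rag1-knockout hosts, which lack T and B cells, so no test was possible. The median log2 ratio of guide CPM, C57BL/6 over Rag1-knockout, was 0.23 over these guides and 0.12 over all 18108 guides with at least 20 reads. Per gene, with 4 guides each, Uqcr10 stood at 1.56, Ndufa3 at 1.10, Ndufb4 at 0.88 and Atp5g3 at 0.55. On the low side, Cox7b2, which is not in the count table, stood at -1.07, Cox7a1 at -0.34 and Cox8a at -0.22. The quartiles over 4556 genes were -0.21 and 0.43. The guides of a gene spread widely, those of Uqcr10 between -0.28 and 3.63.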

How the data were processed

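RNA-seq counts per gene were deposited by the authors as a table of whole numbers for 10 tumours and 6 cell cultures, and guide counts of a screen as a second table. RNA was extracted with Trizol and captured on poly(A) beads before a size-selected library, per the labels' protocols. Per the submitters' processing notes, HTSeq 0.13.5 and STAR 2.7.1a are named, and FastQC 0.11.9, SAMtools 1.3.1 and cutadapt 1.18 are listed too, with a human genome build, although the symbols are mouse; the mouse build, strand use and treatment of reads with several matches are not given in the sources used here. Nuclear copies of mitochondrial DNA and near-identical genes can therefore share reads.

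Counts were tested in R 4.3.3 with edgeR 4.0.16 (filterByExpr, TMM, quasi-likelihood test) on the groups of each comparison. Tests ran across all genes that passed the filter, adjusted by Benjamini-Hochberg and called under 0.05. For WT tumours against WT cells, and for the difference of the knockdown effects, only genes with counts in both tumours and cells were used. As SE the text gives the log2 value over the square root of F. Medians, shares and ratios are descriptions with no test. The text names the 13 mitochondrial rows, core subunits and tissue isoforms, and for each complex and comparison up to 4 rises and 4 falls with the smallest p among called members with at least 5 CPM in a group, and of each other list up to 2 of each; any further member was chosen after its values were seen. The members and the gene lists were chosen with earlier results of these data known. Alternatives were DESeq2 1.42.0, library-total scaling, no filter, a replicate block, a smooth per-library correction for GC and length of transcripts, and leaving out each library. Transcript GC content and length came from GENCODE M21 and were known for 97.8% of rows. The values of 1 member are not reported here, though it is counted in the totals. All columns of the tables were assigned to a sample. On simulated counts the test recovered 100% of log2 changes of 1 and 52% of 0.5 for tumours, and 99% and 17% for cells. The simulation gave every gene the same fixed dispersion and changed only genes of at least 5 CPM. These rates therefore do not measure recovery for members whose libraries spread more, such as the mitochondrial mRNAs in tumours.

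Library totals were 14240353 to 32655739 counts; intervals were not drawn, since the spread between libraries exceeded counting error. Guide counts were scaled to CPM with a pseudocount of 1, with 1 library per host.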

Additional observations from a re-analysis of the deposited data

Results flagged for a closer look

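Of 146 groups of values with 5 libraries that were examined, 15 held a library whose gap to its nearest neighbour took up more of the group's range than chance gives in about 1 of 20 groups. The share of that range is given for each. Among the KD tumours, Ndufa4 was high in KD tumour 2 (238 CPM, others 171 to 189.9, share 0.721), Ndufa6, an accessory subunit of complex I, was low in KD tumour 1 (93.1 CPM, others 110.2 to 115, share 0.774), and Cox6b2 was low in KD tumour 4 (0.222 CPM, others 0.459 to 0.531, share 0.767). Among the WT tumours, WT tumour 1 was high for Atp5k (115 CPM, others 82.6 to 89.3, share 0.795) and Cox5a (154 CPM, others 118 to 128, share 0.731). WT tumour 2 was high in the other 10. They were the mitochondrial share of counts (2.78%, others 1.503% to 1.87%, share of the range 0.716), CYTB (8220.4 CPM, others 4317 to 5124, share 0.793) and ND4 (2843 CPM, others 1480.4 to 1833, share 0.741), and 7 nuclear members. Of these, Atp5md stood at 85.8 CPM (others 58.2 to 65.6, share 0.733) and Cox7b at 249.8 CPM (others 166 to 183, share 0.794). Ndufa12 stood at 208 CPM (others 178 to 186, share 0.727) and Ndufc2 at 46.1 CPM (others 32.0 to 35.6, share 0.746). The near-identical Ndufb4, Ndufb4b and Ndufb4c, which may share reads, had shares of 0.733, 0.720 and 0.786.

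The effect of the knockdown differed between tumours and cells in 22 of 94 members (23.4%) by the test of the difference itself, an interaction term in edgeR. That share was close to the 22.7% of all 12581 genes tested. It was 18.5% among the nuclear members and 53.8% among the 13 mitochondrial mRNAs. Above 0, meaning a higher effect in tumours, were ND4L (1.85 on the log2 scale), ND2 (1.56), ND6 (1.39), ATP8 (1.27), COX1 (1.27), ND5 (1.23), CYTB (1.21), Ndufb4c (0.73) and Ndufs1 (0.48). Among those below 0 were Ndufs6 (-1.09), Cox6a2 (-1.05), Ndufa2 (-0.91), Ndufa1 (-0.85), Ndufv1 (-0.75), Atp5d (-0.71), Ndufb9 (-0.67), Cox4i1 (-0.66), Uqcr10 (-0.61), Cox8a (-0.58), Cox6a1 (-0.55) and Ndufb8 (-0.50).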

How the results depend on the processing

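The members called in KD against WT cells, 16 in all, became 9 with the GC and length correction and 0 with the replicate block. Of all genes, 12.8% passed with the correction and 4.3% with the block. The members called were 0 to 30 when single libraries were left out, so these calls depend on the libraries in the fit. The share of all genes that passed ran from 2.4% to 12.7% in the latter fits. The 46 called in KD against WT tumours were 36 to 51 with single libraries left out and 26 with KD tumours 1, 2 and 4 only, a comparison chosen after seeing the data. Of all genes, 28.7% to 41.4% and 26.5% passed in these tumour fits. The 89 called in WT tumours against WT cells were 82 to 89 with single libraries left out, where 75.4% to 79.8% of all genes passed. The 22 of the difference between tumours and cells were 6 to 35 with single libraries left out. They were 14 with the correction and 10 with KD tumours 1, 2 and 4 only. Of all genes, 13.2% to 26.7%, 13.1% and 18.4% passed in these fits of the difference. The mitochondrial median in tumours was 0.96 to 1.45 with single libraries left out, 0.45 with the correction and 0.65 with KD tumours 1, 2 and 4, and that of the difference was 1.03 to 1.42, 0.55 and 0.74 in the same order. In cells the mitochondrial median was -0.10 to 0.11 and the nuclear median 0.17 to 0.35 with single libraries left out, and the nuclear median was 0.068 with the correction. In tumours the nuclear median was 0.0048 to 0.10 with single libraries left out and -0.077 with the correction. For the difference it was -0.27 to -0.10 with single libraries left out. In WT tumours against WT cells the mitochondrial median was -1.63 to -1.18 with single libraries left out, and the nuclear median was 0.92 to 1.01, 0.90 with library totals in place of TMM, 1.04 with the replicate block and 0.020 with the correction.

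Among members named by the rule above and called in the comparison as reported, directions reversed with the GC and length correction. In cells this was ATP8 (-0.010), and in tumours Cox7c (-0.0044) and Uqcrc2 (-0.011). In WT tumours against WT cells it was Atp5h (-0.088), Atp5j (-0.67), Atp5mpl (-0.55), Cox4i1 (-0.31), Cox6a1 (-0.64), Cox8a (-0.47), Ndufa5 (-0.013), Ndufb4 (-0.32), Ndufb4c (-0.89), Ndufc2 (-0.75), Ndufs7 (-0.67), Ndufv1 (-0.70), Sdhb (-0.87) and Uqcrc1 (-0.39). Members outside that rule are not listed. Over all nuclear members in WT tumours against WT cells, values above 0 went from 76 of 81 to 41 of 80 with the correction. Nuclear calls as lower went from 5 to 31. Whether the correction removes a technical tilt or part of a biological change was not tested. Over the alternatives, with single members entered only where named by that rule, 2718 values kept their direction and side of the threshold. Of the others, 289 no longer passed, 111 counts or values moved and 17 reversed.

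Whether the replicate numbers pair the libraries is not given. With each gene's group mean taken off its log CPM, same-numbered KD and WT libraries correlated at 0.052, -0.189 and -0.154 in cells. In tumours the same correlations lay between -0.203 and 0.158. Differently numbered KD and WT libraries lay between -0.106 and 0.237 in cells and between -0.394 and 0.415 in tumours. With the replicate block 12 mitochondrial and 31 nuclear members passed in tumours and 0 in cells, while in WT tumours against WT cells 1 mitochondrial member was higher and 7 lower and 70 nuclear members were higher and 3 lower, and in the difference 4 mitochondrial members were above 0, 2 nuclear members above and 10 below. Of all genes, 33.9% passed with the block in tumours and 4.3% in cells. That share was 74.0% in WT tumours against WT cells and 17.3% in the difference. Members under 1 CPM, such as Cox8b, rest on few counts. With 3 libraries per group, 17% of simulated log2 changes of 0.5 were recovered in cells, so a member that did not pass there may still differ.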

Other observations

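The KD tumours were also set beside the KD cells, with no test. The mitochondrial share averaged 4.38% in the KD tumours and 4.31% in the KD cells, and the groups overlapped, while the nuclear share averaged 1.26% in the KD tumours and 0.985% in the KD cells, every tumour being higher. The mitochondrial to nuclear ratio averaged 3.53 in the KD tumours and 4.45 in the KD cells, again with overlap, and ATP8 over ATP6 averaged 1.49 in the KD tumours and 0.0878 in the KD cells, without overlap. ND6 over ND5, genes whose ends overlap on opposite strands, averaged 0.384 in the KD tumours and 0.168 in the KD cells, also without overlap.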
